A study of Mus musculus with 16 samples.

Results

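The comparison described here sets 4 h of ERK induction against 2 h of it in a mouse pluripotent cell line, and asks how the transcriptional response moved as the signal went on. Its libraries were taken by group label alone: the 4 RNA-seq libraries named 4h against the 4 named 2h, 8 of the 16 libraries of the series. The cells, line CRAFR26, derive from mouse embryonic stem cells that were targeted with a c-RAF kinase construct switched on by 4-hydroxytamoxifen, and were differentiated to the cell type that the labels call RSC. They were grown in N2B27 with LIF, the porcupine inhibitor IWP2 and the MEK inhibitor PD03. In every group PD03 was replaced, for the 48 h before the experiment, by 250 nM of the FGF receptor inhibitor PD17. The group 0h was then collected uninduced. Cells of 2h and 4h received 250 nM 4-hydroxytamoxifen for the time in the name, and rev cells had the full 4 h of it and then another 2 h with a MEK inhibitor. Each group held 2 libraries of clone 4 and 2 of clone 8. Each clone is a single targeted isolate, and the labels do not say whether the 2 libraries of a clone came from separate cultures, so p-values measure the spread between these libraries, which may be technical. Libraries of 2 h or 4 h in culture without tamoxifen were not analysed here, so time in culture and time under induction cannot be told apart.

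ERK is the last kinase of the RAF, MEK and ERK cascade. Active ERK phosphorylates transcription factors already present in the cell, and the immediate-early genes such as Fos, Egr1 and Jun are then transcribed without new protein synthesis and usually for a short time. Their products, and ERK itself, go on to drive delayed targets such as the ETS factors Etv4 and Etv5, as well as feedback inhibitors: the DUSP phosphatases, which dephosphorylate ERK, and the Sprouty and SPRED proteins, which act on the cascade further up. In mouse pluripotent cells ERK activity is known for lowering the naive factors Nanog, Klf4 and Tbx3.

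Total counts ran from 7.62 to 10.4 M (mega-reads) at 2h and from 4.31 to 8.08 M at 4h, and 8 abundant features (each above 1% of the counts, mt-Rnr1 and mt-Rnr2 among them) held 46.7% to 64.9% of them at 2h and 53.3% to 64.6% at 4h. The counts left outside these features were 2.96 to 5.46 M at 2h and 1.53 to 3.77 M at 4h. The share of these features, the share of mitochondrial protein genes and the share of ribosomal protein genes differed between 2h and 4h with exact two-sided permutation p = 0.343, 0.543 and 0.486 (4 libraries against 4, smallest possible p 0.0286, adjusted p over the 8 library measures 0.457, 0.543 and 0.543). The permutation tests, here and below, left clone out. By clone, the abundant features held 64.9% and 61.1% at 2h and 63.3% and 64.6% at 4h in clone 4. In clone 8 they held 52.1% and 46.7% at 2h and 53.3% and 61.8% at 4h, without overlap. In a principal component analysis of the 500 most variable genes, the first component (51.0% of the variance) separated the clones. The third (8.6%) placed all 4h and all 0h libraries on one side of zero and all 2h and rev libraries on the other, so the comparison of 4h with 2h crosses this split, and the split cannot be told apart from the groups. Pou5f1 and Sox2, the core pluripotency factors, lay at 120 to 158 and 227 to 241 CPM (counts scaled to a library of 1 M) at 2h, and at 142 to 175 and 211 to 225 CPM at 4h. Of other lineages, the summed level of 10 primitive endoderm markers ran from 224 to 371 CPM at 2h and 254 to 309 at 4h, with the defining factors Gata6 and Sox17 at no more than 10 and 9 counts in any library; the sum of 9 fibroblast markers was 3.32 to 11.5 and 4.57 to 7.04 CPM. Esr1, the estrogen receptor gene, stood at 7.45 to 20.04 CPM at 2h and 5.73 to 19.3 CPM at 4h (−0.27 log2, edgeR adjusted p = 0.209). Whether reads of the construct count toward it was not tested.

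**Figure D1:**
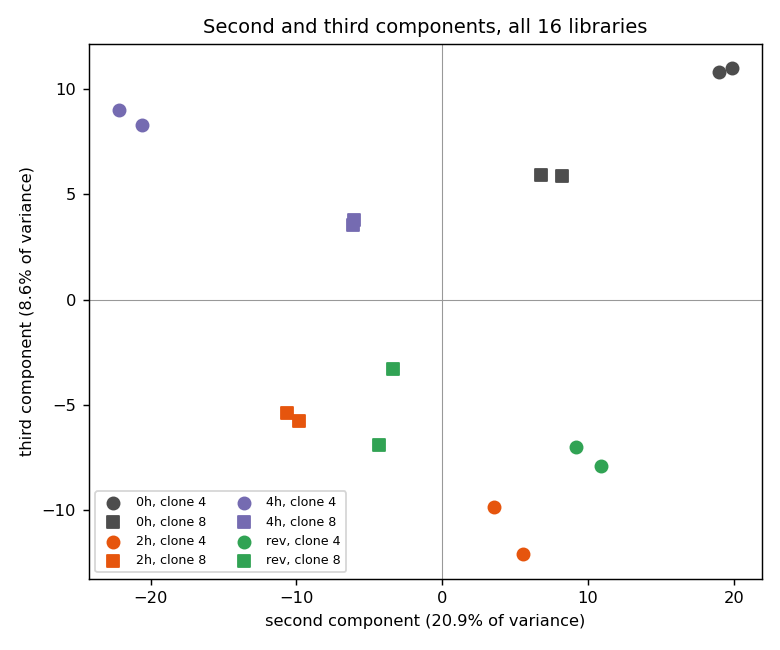
Scores on PC2 (x axis) and PC3 (y axis), the principal components, of the 16 libraries, in log2 CPM units over the 500 most variable genes, with colour for group and shape for clone. The libraries of 4h and 0h lie above zero on the third component and those of 2h and rev below it, in both clones.

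Of 12742 genes with enough counts to test, 1547 changed between 2h and 4h by edgeR's quasi-likelihood test with clone as covariate (adjusted p under 0.05 over all tested genes): 737 were higher at 4h, 5.78% of those tested, and 810 lower, 6.36%. A change of at least 2-fold, 1 on the log2 scale, was reached by 186 of the higher and 116 of the lower genes. In 5.72% of tested genes all 4 libraries of 4h lay above all 4 of 2h, and in 5.4% all lay below. The median change of all tested genes was −0.003. Changes below are log2 of 4h over 2h with standard errors, and levels are CPM after TMM scaling.

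Immediate-early genes that passed over both clones were lower at 4h. Of 31 listed genes 27 were tested (Fosb, Egr2, Egr4 and Nr4a2 had too few counts); 11 were lower at 4h, against a background of 6.36% of all genes, none was higher, and the median change was −0.24. Fos, the AP-1 subunit, had the largest fall of the genes named by rule. In clone 4 it stood at 18.3 and 26.7 CPM at 2h and at 1.60 and 4.06 CPM at 4h; in clone 8 it stood at 8.96 and 8.27 CPM at 2h and at 0.804 and 1.53 CPM at 4h. All 4h libraries were therefore below all 2h libraries; at 0h the gene stood at 0.152 to 1.20 CPM. The change was −3.04 ± 0.28 (edgeR adjusted p = 1.09e-05) with −3.17 in clone 4 and −2.95 in clone 8. The difference between them, 0.21 ± 0.59, did not pass (adjusted p = 0.855). Fos lies at chr12:85473890-85477273 of GRCm38 and holds no more than 193 counts in any 2h library and 16 in any 4h library.

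Egr1, a zinc-finger factor at chr18:34859823-34864984, fell less, and from a much higher level. Its CPM in clone 4 was 457 and 572 at 2h and 228 and 290 at 4h, and in clone 8 it was 180 and 169 at 2h and 29.8 and 31.4 at 4h. Within each clone the 4h libraries were the lower ones, but clone 4 at 4h still stood above clone 8 at 2h. The change over both clones was −1.65 ± 0.25 (edgeR adjusted p = 0.000561). Here the clones differed: −0.999 in clone 4 against −2.51 in clone 8, a difference of −1.52 ± 0.19 (adjusted p = 8.5e-07). At 4h Egr1 remained far above its 0h level of 0.999 to 3.94 CPM in both clones.

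The matricellular genes Ccn1 (Cyr61) and Ccn2 (Ctgf) were lower in both clones. Ccn1 went from 41.6 and 52.9 CPM to 22.4 and 16.5 in clone 4, and from 13.1 and 13.7 CPM to 6.43 and 4.59 in clone 8. Its change was −1.23 ± 0.24 (edgeR adjusted p = 0.00339), with −1.24 in each clone. Ccn2 changed by −0.78 ± 0.19; 23.2% of its exon length overlaps a gene on the opposite strand, and whether reads were counted by strand is not given in the sources used here. Of the other called genes, Jun (−1.19), Rhob, a small GTPase (−1.32), Btg2, an antiproliferative factor (−0.84), Ier2 (−0.55), Dusp1, a phosphatase of MAP kinases (−0.63), and Mcl1, which opposes apoptosis (−0.28), were lower. Atf3, a stress-responsive AP-1 family member, changed by −1.71 but from only 1.85 ± 0.91 CPM (SD, n = 4). Jun, Ier2 and Rhob had larger falls in clone 4 than in clone 8, with edgeR adjusted p of 0.00572, 0.0014 and 1.34e-06 for the difference.

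Other immediate-early genes did not pass over both clones, and some went apart between the clones. Egr3, a relative of Egr1, stood at 14.1 and 13.1 CPM at 2h and 18.3 and 19.6 at 4h in clone 4, and under 1 CPM in every clone 8 library. Arc stood at 109 to 145 CPM in clone 4 and 24 to 33.4 CPM in clone 8 over both times, with a change of −0.14 ± 0.33 (edgeR adjusted p = 0.822). Myc, the growth-promoting transcription factor, moved in opposite directions. It rose in clone 4 from 13.2 and 13.3 CPM to 37.6 and 37.8, a change of 1.51, and fell in clone 8 from 39.3 and 36.4 CPM to 16.7 and 22.5, a change of −0.97 (edgeR adjusted p = 2.21e-08 and 4.25e-05). The average over the clones, 0.11, stood beside a clone difference of −2.48 ± 0.22 (adjusted p = 1.48e-09). By clone, 4 immediate-early genes were higher and 11 lower in clone 4, where 13.3% of all tested genes were called higher and 15.9% lower; in clone 8 the counts were 1 and 11, against 3.81% and 4.14%.

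**Figure D2:**
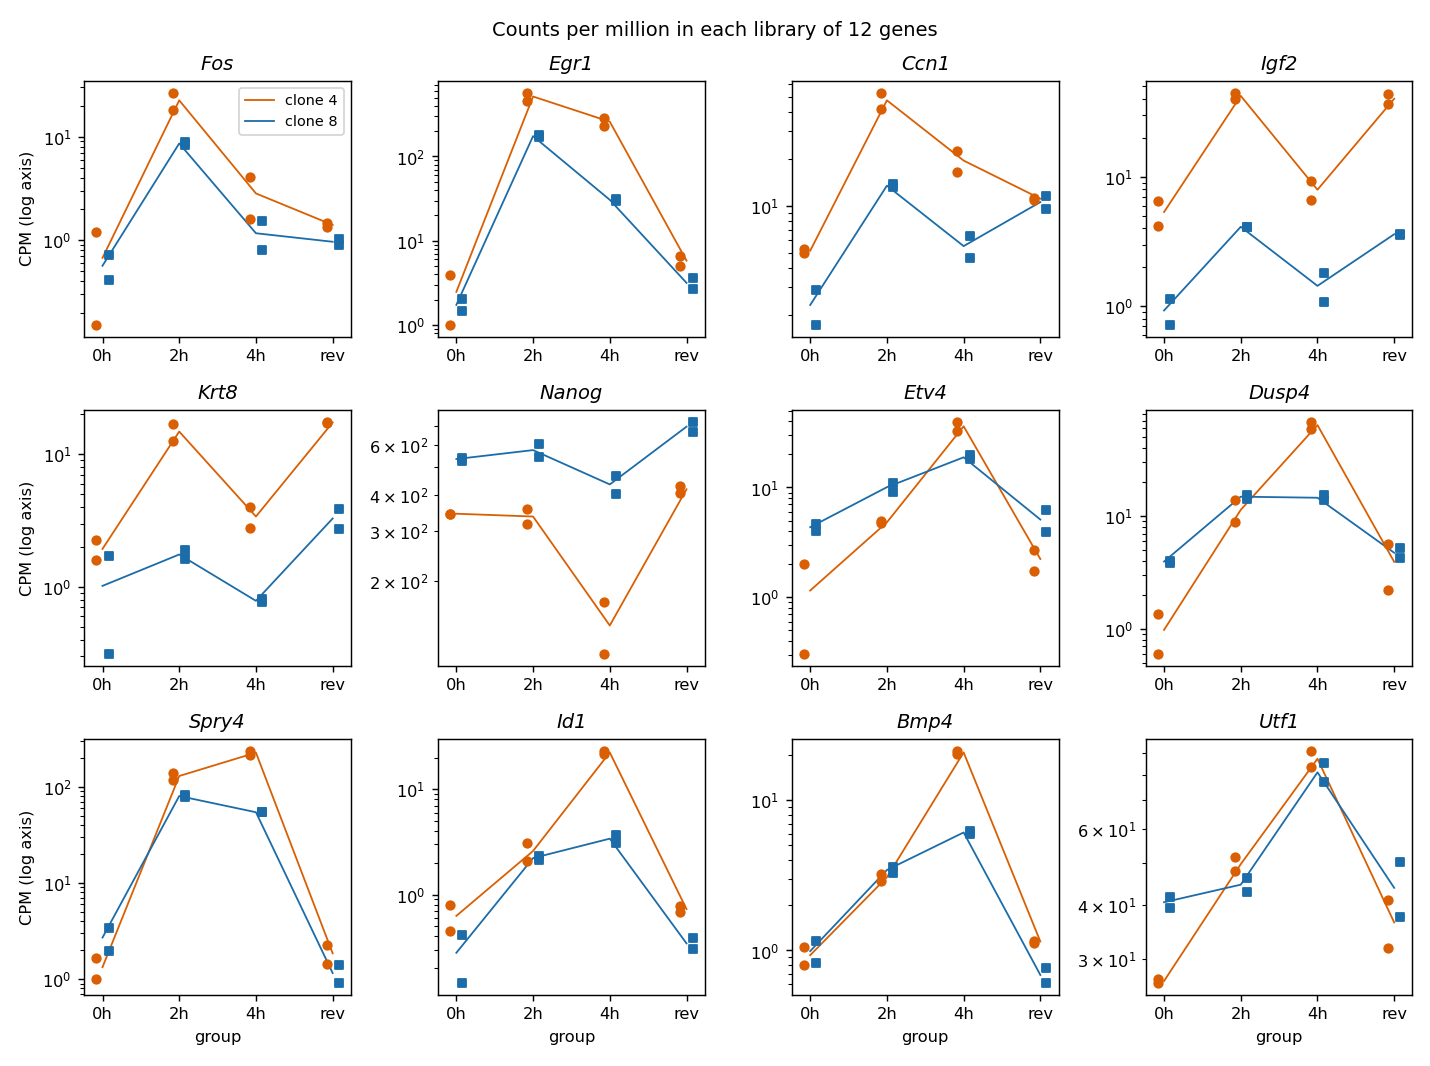
CPM on a log axis in each library of 12 genes, by group on the x axis; orange circles are clone 4 and blue squares clone 8, and lines join the means of the 2 libraries. Fos, Ccn1, Igf2 and Krt8 are lower at 4h than at 2h in both clones, Etv4, Bmp4 and Utf1 are higher in both, and Dusp4 and Spry4 part company between the clones.

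Promoters of the immediate-early genes are shown because the factors that respond to ERK bind there: SRF at CArG boxes, CREB family factors at the cAMP response element (CRE), and EGR factors at GC-rich sites. The sequences are the 250 bases before the RefSeq start (GRCm38.p6), 5′ to 3′ on the strand of the gene, with matches in capitals. Btg2, at chr1:134079156-134079405 on the minus strand, has the full CRE beginning at −166 from the start and an EGR match at −131; Dusp1, at chr17:26508473-26508722 on the minus strand, has a CRE at −143; Zfp36, a decay factor of AU-rich mRNAs, at chr7:28379229-28379478 on the minus strand, has a CArG box at −58 and an EGR match at −105.

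Btg2: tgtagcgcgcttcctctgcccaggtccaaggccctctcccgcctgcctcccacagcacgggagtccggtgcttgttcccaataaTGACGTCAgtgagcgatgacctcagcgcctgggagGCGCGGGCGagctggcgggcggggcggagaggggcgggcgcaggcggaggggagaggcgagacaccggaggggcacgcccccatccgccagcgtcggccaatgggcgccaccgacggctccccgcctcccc

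Dusp1: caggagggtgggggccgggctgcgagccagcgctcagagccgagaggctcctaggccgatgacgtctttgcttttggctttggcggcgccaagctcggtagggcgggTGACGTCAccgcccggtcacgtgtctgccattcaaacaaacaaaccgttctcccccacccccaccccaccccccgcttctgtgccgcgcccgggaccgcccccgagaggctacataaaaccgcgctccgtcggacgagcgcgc

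Zfp36: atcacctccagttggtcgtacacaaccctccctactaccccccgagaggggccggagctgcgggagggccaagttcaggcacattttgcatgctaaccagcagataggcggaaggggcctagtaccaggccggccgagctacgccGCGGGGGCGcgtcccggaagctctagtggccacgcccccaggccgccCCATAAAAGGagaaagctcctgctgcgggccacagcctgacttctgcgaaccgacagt

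Btg2 and Dusp1, with the CRE, were both lower at 4h: Btg2 went from 26.1, 31.8, 37.5 and 40.5 CPM at 2h to 12.4, 13.5, 24.1 and 26.3 at 4h (edgeR adjusted p = 0.00123), and Dusp1 from 17.4, 24.5, 14.97 and 13.2 to 14.5, 11.7, 8.85 and 9.49 (adjusted p = 0.01), the libraries given with clone 4 first. The groups of Dusp1 overlap by a single pair of libraries across the clones. Zfp36 did not pass (−0.24, adjusted p = 0.459). Over promoters from 250 bases before to 50 after the start, on either strand, the CRE letters TGACGTCA were in 5.36% of the 597 matched promoters of genes called lower, 2.22% of the 540 of genes called higher and 3.37% of the 9495 of tested genes. The CArG box was in 1.01%, 1.11% and 1.22%, the AP-1 letters TGANTCA in 4.02%, 5.74% and 4.39%, and the EGR letters GCGNGGGCG in 13.2%, 13.1% and 11.2%. TGANTCA and TGACGTCA cannot match the same 7 letters. Of the 27 tested immediate-early genes 19 had a matched promoter. Egr1 was not among them and was not searched. Of the 19, 2 held a CArG box (Srf and Zfp36), 2 a CRE, 5 an EGR match and 0 an AP-1 match. These shares are a description of letters in a short window, and no binding was measured.

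Feedback inhibitors of the cascade changed in few cases over both clones and differently in the clones. Of 16 tested (17 listed), 2 were higher and 0 lower at 4h, against 5.78% and 6.36% of all tested genes, with a median of 0.35. Tested by clone, there were 11 higher and 1 lower in clone 4 (median 0.69), against 13.3% and 15.9% of all tested genes. In clone 8 there were 1 higher and 4 lower (median −0.19), against 3.81% and 4.14%. Dusp4, a nuclear ERK phosphatase, was called higher, from 8.82 and 14.0 CPM to 68.8 and 59.7 in clone 4, while clone 8 stayed at 15.6 and 14.2 CPM at 2h and 15.4 and 13.8 at 4h. Its change of 1.39 ± 0.41 (edgeR adjusted p = 0.0317) came with a clone difference of −2.53 ± 0.26 (adjusted p = 2.79e-08). The call was lost in 8 of 21 alternative settings (other tools, scalings and filters, or a library or clone left out), DESeq2 among them (adjusted p = 0.0634), and the sign turned in clone 8 alone (−0.021). Il17rd, also called Sef, a membrane inhibitor of FGF receptor signalling, was the other called gene. It stood at 25.9, 26.3, 31.2 and 34.2 CPM at 2h and 39.2, 40.1, 38.6 and 36.9 CPM at 4h, with no overlap, a change of 0.39 ± 0.11 (adjusted p = 0.0249). The call of Il17rd was also lost in 8 of 21 settings.

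Dusp6, the cytoplasmic ERK phosphatase, and Spry4 went up in clone 4 and down in clone 8. Dusp6 went from 33.5 and 35.4 CPM to 80 and 73.9 in clone 4 and from 31.1 and 28.0 CPM to 22.8 and 19.3 in clone 8, so that the clones were near each other at 2h and apart at 4h. The clone difference was −1.64 ± 0.18 (edgeR adjusted p = 7.24e-08). Spry4 went from 120 and 141 CPM to 218 and 238 in clone 4 and from 82.4 and 78.9 CPM to 55.0 and 54.4 in clone 8, a clone difference of −1.37 ± 0.15 (adjusted p = 7.43e-08). Spry2, by contrast, changed by 0.33 in clone 4 and 0.22 in clone 8, and its clone difference of −0.11 ± 0.18 did not pass (adjusted p = 0.746). Over the list 9 of 16 genes had a clone difference, against 14.8% of all tested genes, and in 8 of these the change was lower in clone 8.

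Delayed ERK targets that passed in the fit over both clones rose in clone 4, but Ccnd2 and Plaur did not rise in clone 8. Of 18 tested (20 listed, with Ereg and Areg at no more than 1 count), 4 were higher and 0 lower, with a median of 0.50. Of all tested genes 5.78% were higher and 6.36% lower. Etv4, an ETS factor of the PEA3 family at chr11:101769742-101785371, was higher in both clones. In clone 4 it went from 4.93 and 4.70 CPM to 39.7 and 32.5, and in clone 8 from 11.02 and 9.11 CPM to 19.6 and 18.1. No 4h library overlapped a 2h library (1.91 ± 0.35, edgeR adjusted p = 0.00205), with a clone difference of −2.01 ± 0.29. Etv5, its relative, was at 126 to 168 CPM at 2h and 143 to 209 at 4h and did not pass (0.22, adjusted p = 0.174).

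The other 3 called targets rose in clone 4. In clone 8 alone Ccnd2 (−0.057) and Plaur (−0.24) took the other sign. Ccnd2, cyclin D2, stood at 2.20 and 0.968 CPM at 2h and 34.0 and 29.7 CPM at 4h in clone 4, and at 1.22, 2.52, 1.81 and 1.84 CPM in the clone 8 libraries of 2h and 4h. Its clone difference was −4.37 ± 0.49 (edgeR adjusted p = 9.42e-08). Plaur, the urokinase receptor, went from 10.4 and 11.2 CPM to 69.2 and 44.95 in clone 4 and from 2.89 and 3.79 CPM to 3.32 and 2.14 in clone 8. Vgf, a secreted neuropeptide precursor, went from 1.95 and 1.24 CPM to 19.2 and 9.90 in clone 4 and lay under 1 CPM in clone 8. In all, 13 of the 18 delayed targets were higher and 1 lower in clone 4 (median 1.28), where 13.3% and 15.9% of all tested genes were. In clone 8, 1 was higher and 2 were lower (median −0.06), where 3.81% and 4.14% were. A clone difference was called in 13, against 14.8% of all tested genes, and 12 of these had the lower change in clone 8.

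Over all tested genes 5.78% were called higher and 6.36% lower, and within the cascade itself 16 of 20 genes did not pass. Of the others 1 was higher and 3 were lower: Shc1, an adaptor of receptor tyrosine kinases, was higher (0.49), and the lower ones included Sos2, an exchange factor for RAS (−0.70), and Rps6ka2, an ERK-activated kinase (−0.47). Among FGF ligands and receptors, 2 of 8 tested were lower and 0 higher. Fgf4, the FGF ligand of pluripotent cells, went from 182 and 180 CPM to 56.1 and 82.0 in clone 4 and from 199 and 191 CPM to 143 and 136 in clone 8. All 4h libraries lay below all 2h libraries, and the change was −0.87 ± 0.18 (edgeR adjusted p = 0.00501), with a larger fall in clone 4 (adjusted p = 0.000131). Fgfr2 was lower in clone 4 (−1.77) and stood at 8.28 and 8.41 CPM at 2h and 11.2 and 6.89 CPM at 4h in clone 8.

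Of 12 naive pluripotency genes 5 were lower at 4h, where 6.36% of all tested genes were, 0 were higher and 7 did not pass; the median was −0.45. With library totals 3 were lower. Nanog, at chr6:122707489-122714633, stood at 317 and 356 CPM at 2h and 111 and 169 CPM at 4h in clone 4. In clone 8 it stood at 546 and 604 CPM at 2h and 404 and 468 at 4h. Both clones were lower at 4h, although clone 8 at 4h remained above clone 4 at 2h (−0.78 ± 0.16, edgeR adjusted p = 0.00493; clone difference 0.88 ± 0.18, adjusted p = 0.000831). At 0h it was 344 and 345 CPM in clone 4 and 541 and 528 CPM in clone 8, and at rev 407 and 432 and 722 and 666 CPM; 0h and rev are shown beside the pair as levels, and the comparisons with them share libraries with this one.

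Klf4, the Krüppel-like reprogramming factor, changed by −1.55 in clone 4, from 58.5 and 68.6 CPM to 18 and 27.2, and by −0.41 in clone 8, from 123 and 120 CPM to 92.5 and 90.2. Tbx3 (−0.72 ± 0.13), Tfcp2l1 (−0.57 ± 0.16) and Zfp42, known as Rex1 (−0.48 ± 0.11), made up the 5. Esrrb, Dppa3 and Tcl1 did not pass over both clones; they changed by −0.76, −1.19 and −0.75 in clone 4 and by 0.21, 0.67 and 0.97 in clone 8, with clone differences at edgeR adjusted p of 0.000154, 1.67e-07 and 1.11e-07. Klf5 was higher in all 4 libraries of 4h and missed the threshold (0.41, adjusted p = 0.0505), but passed in 11 of 21 alternative settings, DESeq2 among them (adjusted p = 0.0424). Of the list, 9 genes were lower and 1 higher in clone 4 (median −0.87), and 4 lower and 3 higher in clone 8 (median −0.08). Of all tested genes 15.9% were lower and 13.3% higher in clone 4, and 4.14% and 3.81% in clone 8.

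Genes of pluripotency at large and of the formative and primed states went the other way in part. Of 10 general pluripotency genes 3 were higher and 0 lower: Utf1, a chromatin factor, Lin28a, which blocks let-7 processing, and Dppa4. Utf1 was 51.6, 48.0, 46.3 and 42.9 CPM at 2h and 83.6, 91.2, 77.1 and 85.5 CPM at 4h, so its groups did not overlap. It changed by 0.80 and 0.86 in the clones (0.84 ± 0.13, edgeR adjusted p = 0.000707). Lin28a rose by 0.95 ± 0.17. Of 16 formative and primed genes 5 were higher and 2 lower, with a median of 0.56, where 5.78% and 6.36% of all tested genes were. With library totals 2 were higher and 0 lower, and leaving out 1 library at a time gave 1 to 6 higher and 0 to 2 lower. Otx2 lost its call in 10 of 21 settings and Lef1 in 13 of 20. Otx2, the homeobox factor of the formative state, was at 12.2, 8.29, 4.18 and 4.35 CPM at 2h and 15.9, 15.2, 5.23 and 10.3 CPM at 4h (0.70 ± 0.20, adjusted p = 0.0264). Tcf15 (1.49), Cdh2, which encodes N-cadherin (1.34), Lef1 (0.95) and Podxl (0.60) were also higher. The zinc-finger genes Zic2 (−0.53) and Zic5 (−0.67) were lower, with clone 8 changes of −0.06 and −0.08.

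Ligands of the TGF-beta superfamily changed in both directions. Counts of called list members below stand against 5.78% higher and 6.36% lower of all tested genes. Bmp4, the BMP ligand, stood at 2.90 to 3.57 CPM in all 2h libraries. At 4h it reached 21.3 and 20.3 CPM in clone 4 and 5.93 and 6.28 CPM in clone 8, all above 2h (1.79 ± 0.27, edgeR adjusted p = 0.000557). Id1, a BMP target that inhibits basic helix-loop-helix factors, went from 3.11 and 2.07 CPM to 23.2 and 21.6 in clone 4, and from 2.13 and 2.31 CPM to 3.12 and 3.68 in clone 8 (1.96 ± 0.33, adjusted p = 0.00134). Its relatives Id3 (−0.88) and Id4 (−0.83) were lower, as were Bmpr2 (−0.66) and Msx2 (−0.99), so 2 of 11 tested members of the BMP list rose and 4 fell. Leaving out 1 library at a time gave 1 to 4 lower: Msx2 lost its call in 15 of 18 settings (DESeq2 adjusted p = 0.0929), Id4 in 8 of 21 and Bmpr2 in 7 of 21. Nodal was lower in both clones (−0.61 ± 0.11, adjusted p = 0.00164), with Smad7, an inhibitory SMAD (−0.75), and Acvr2b (−0.41). Foxh1, a DNA-binding partner of SMADs (0.75), and the receptor Acvr1b (0.43) were higher. In the LIF list Il6st, the gp130 receptor subunit (−0.54), Pim1 and Pim3 were lower, and Bcl3 and Gbx2 higher. Gbx2 shares 43.5% of its exon length with another gene. In the Wnt list 1 gene rose (Tcf7l2) and 1 fell (Fzd5) of 7 tested. Acvr1b lost its call in 14 of 21 settings, Acvr2b and Pim3 in 12 each, Pim1 in 10 and Smad7 in 9. Tcf7l2 lost it in 10, and its sign turned in 1 more. Gbx2 lost its call in 7, Fzd5 in 5, Nodal, Foxh1 and Il6st in 2 each and Bcl3 in 1. With library totals the LIF and Wnt lists had 0 called in either direction, and the Nodal list had 0 higher and 2 lower.

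Igf2 and H19, the neighbouring imprinted genes of the distal part of chromosome 7, fell together. Igf2, a growth factor, went from 39.8 and 44.8 CPM to 9.33 and 6.60 in clone 4, and from 4.10 and 4.14 CPM to 1.81 and 1.07 in clone 8. The change was −2.11 ± 0.20 (edgeR adjusted p = 1.09e-05); 64.5% of its exon length is shared with another gene model, mostly on the same strand, so part of its counts may belong there. H19, a noncoding RNA at chr7:142575529-142578143, went from 96.2 and 116 CPM to 49.2 and 41.9 in clone 4, and from 4.33 and 5.47 CPM to 1.61 and 0.919 in clone 8 (−1.34 ± 0.16, adjusted p = 6.86e-05). For both genes the 0h level was below that of 2h and the rev level above that of 4h: H19 was at 40.2 and 38.04 CPM at 0h and 96.2 and 89.7 CPM at rev in clone 4. Cdkn1c, a CDK inhibitor in the same region, changed by −1.34 ± 0.28, with 30.7% of its exon length shared with a gene on the opposite strand. Peg10 (−0.67) was lower, and Mest (0.72) and the noncoding RNA Meg3 (1.25 ± 0.19) were higher, which makes 2 higher and 4 lower of 17 tested imprinted genes. Of all tested genes 5.78% were higher and 6.36% lower.

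Of 15 tested simple epithelial genes 4 keratins were lower: Krt7 (−1.89), Krt8 (−1.77), Krt18 (−1.04) and Krt19 (−1.79). Of all tested genes 6.36% were lower and 5.78% higher. Krt8 stood at 12.7 and 17.0 CPM at 2h and 4.00 and 2.79 at 4h in clone 4, and at 1.90, 1.61, 0.804 and 0.766 CPM in the same order in clone 8. Its change was −1.77 ± 0.32 (edgeR adjusted p = 0.00186). In clone 8 Krt7 and Krt19 lay at no more than 0.532 CPM, where a library's floor of 3 counts is 0.21 to 0.459 CPM, so the change there could not be resolved at this depth. Krt7 is also a trophectoderm marker. The summed level of 8 trophectoderm markers was 35.5 to 95.5 CPM at 2h and 44.6 to 63.7 CPM at 4h, with Cdx2 and Elf5 at no more than 7 and 4 counts; the part of such cells in the keratin result was not tested. In bulk RNA, fewer cells of a type and less RNA per cell cannot be told apart. Within the same list Lad1 (1.44) and Cavin1, a coat protein of caveolae (1.52), were higher. Lats2, a kinase of the Hippo pathway (−1.43), and Amotl2, an angiomotin that binds YAP (−0.93 ± 0.15, adjusted p = 0.000707), were the 2 lower genes among 14 tested targets of YAP and SRF. Of Lats2, 42.4% of the exon length is shared with a gene on the same strand.

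Cell cycle regulators of G1 were divided, with 3 higher and 3 lower of 12, where 5.78% and 6.36% of all tested genes were. Cdkn1a, the CDK inhibitor p21, went from 60.9 and 72.0 CPM to 14.9 and 21.8 in clone 4, and from 35.6 and 36.2 CPM to 22.5 and 22.2 in clone 8. All 4h libraries were below all 2h libraries (−1.25 ± 0.17, edgeR adjusted p = 0.000249), and the fall was larger in clone 4 (adjusted p = 2.17e-05). Rb1, the retinoblastoma protein gene, changed by −0.87 ± 0.13 (14.9% of its exon length overlaps a gene on the opposite strand), and its groups did not overlap either, from 27.4 to 36.3 CPM at 2h to 12.3 to 23.1 CPM at 4h. Ccne2 was also lower (−0.63), and Ccnd3 (0.56), Cdk6 (0.80) and Cdk2 (0.29) were higher. With library totals the list had 0 higher and 2 lower, and Cdk2 lost its call in 13 of 21 settings.

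Replication-dependent histone genes were lower as a list in clone 4. Of 52 tested, 14 were lower and 0 higher over both clones, with a median of −0.44, where 6.36% of all tested genes were lower. In clone 4 there were 43 lower and 0 higher (median −0.82), where 15.9% of all tested genes were lower. In clone 8 there were 2 lower and 0 higher (median −0.12), where 4.14% were lower. A clone difference, called in 14.8% of all tested genes, was called in 20 of the histone genes, each with the larger fall in clone 4. Hist1h1b, a linker histone gene, stood at 123 and 101 CPM at 2h and 53.1 and 62.0 CPM at 4h in clone 4, and at 97.9 and 94.2 and then 68.9 and 84.8 CPM in clone 8 (−0.63 ± 0.13, edgeR adjusted p = 0.00493). The histone share of counts outside the 8 abundant features was 0.428% to 0.567% at 2h and 0.266% to 0.448% at 4h (exact permutation p = 0.0571, adjusted p over the 8 library measures 0.229). Members of this family are near-identical in sequence and their counts can be split between copies. With library totals in place of TMM 3 of the histone genes were lower, and leaving out 1 library at a time gave 4 to 20.

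Of 28 sterol and fatty-acid synthesis genes 6 were lower, where 6.36% of all tested genes were, and 0 higher; with library totals 0 were called in either direction. The lower genes included Cyp51 (−0.58) and Msmo1 (−0.45), enzymes of cholesterol synthesis, Insig1, a regulator of that pathway (−0.58), and Elovl6, a fatty-acid elongase (−0.40). Ribosome biogenesis genes had 5 higher and 0 lower of 30, with Nop2 at 0.35 ± 0.07, and 24 of the 30 changes were positive; with library totals 0 were called (Nop2 at adjusted p = 0.749 in edgeR), and with 1 library left out 1 to 5. Glycolysis genes had 3 higher (Slc2a1, Hk2 and Pfkp) and 2 lower (Hk1 and Bnip3) of 26, and 0 and 0 with library totals, and amino-acid response genes 3 higher (Trib3, Slc7a5 and Stc2) of 22. With library totals 1 amino-acid response gene was higher. Trib3, Slc7a5 and Stc2 lost their calls in 11, 9 and 6 of 21 settings. Ribosomal protein genes had 4 higher of 83, and 1 heat-shock gene of 10 was higher (Hsph1), where 5.78% of all tested genes were higher. With library totals 0 of either list were called. Of 25 tested small nucleolar and Cajal body RNAs 2 were higher (Snord13 and Snord32a), and in clone 8 their median was 0.74 against 0.11 in clone 4. Among lineage markers Dab2 (−1.93, from 1.59 CPM), Col4a1 (−0.93) and Krt7 were lower and Pax6 (1.06) higher; the 4 tested mesendoderm markers and the single tested fibroblast marker did not pass.

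**Figure D3:**
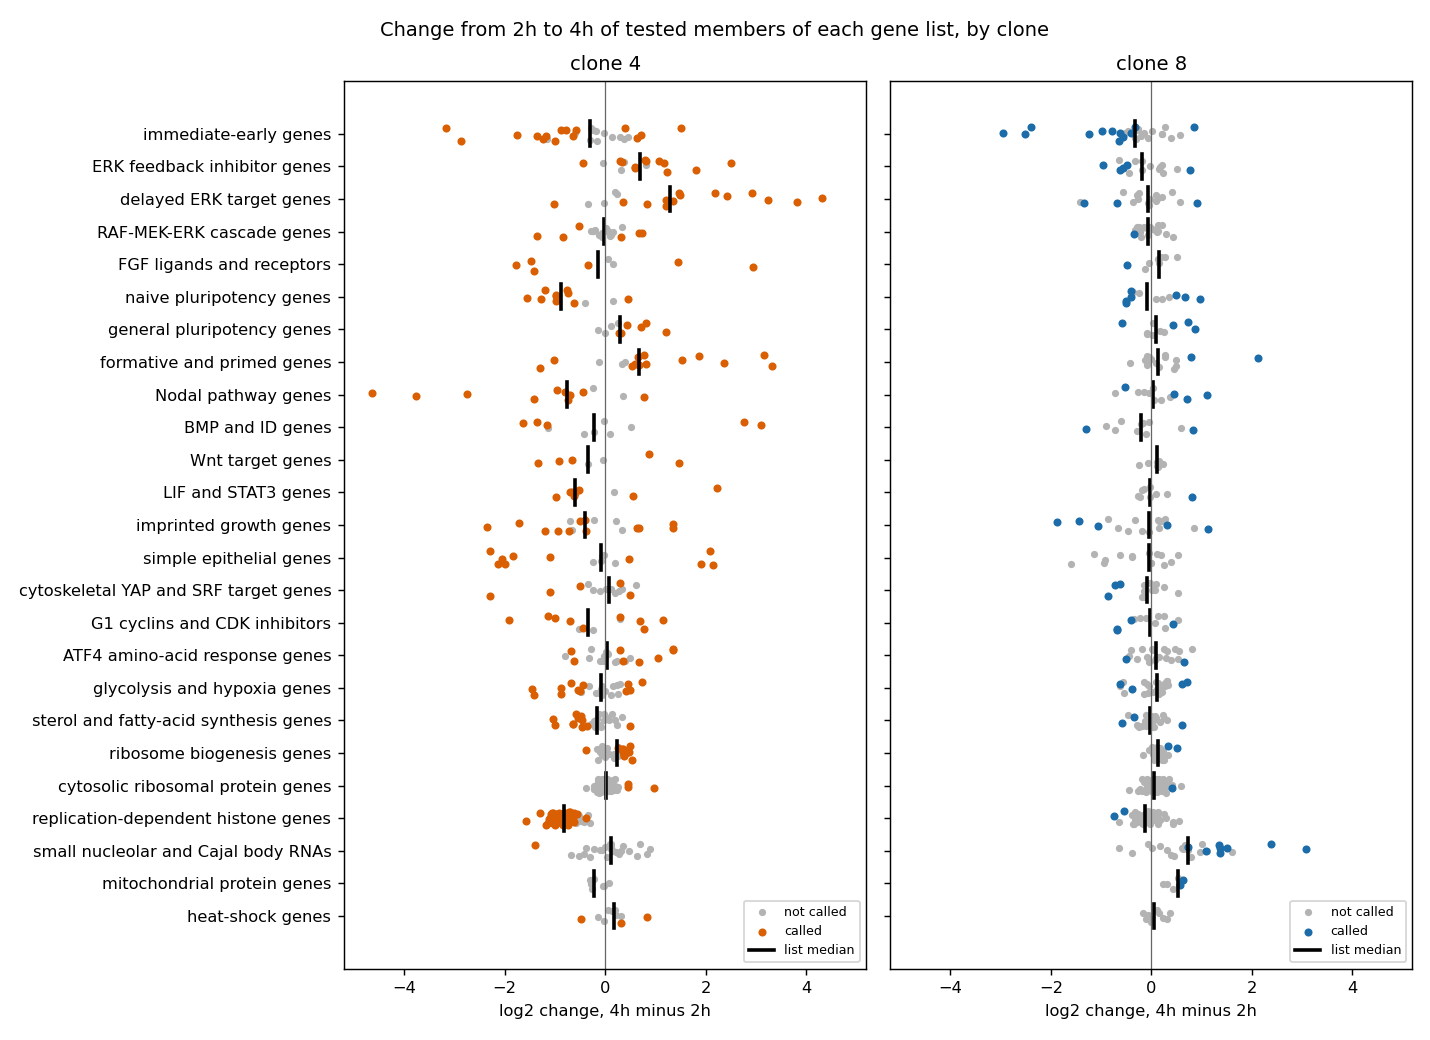
Log2 change from 2h to 4h (x axis) of each tested member of 25 gene lists, in clone 4 on the left and clone 8 on the right; coloured points passed the test within that clone, grey points did not, and the black bar is the list's median. Medians of delayed ERK targets (1.28 and −0.06), naive genes (−0.87 and −0.08) and histones (−0.82 and −0.12) lie further from zero in clone 4.

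Beyond the lists, the 12 largest rises and falls were named by a rule that required both 4h libraries of each clone to lie on the same side of both its 2h libraries. The rises were Pou4f2, a POU factor of sensory neurons (2.60), Sgms2, a sphingomyelin synthase (2.58), Akr1b8, an aldo-keto reductase (2.44), Jade2 (2.42), Fam167a (2.33), Trh, the precursor of thyrotropin-releasing hormone (2.25), Ppm1j (2.17), Nrp2, a semaphorin and VEGF co-receptor (2.12), Abcc2, an export pump (2.05), Id1 (1.96), Exoc3l (1.95) and Pcdh1, a protocadherin (1.93). Their edgeR adjusted p ran from 3.59e-05 to 0.00409. Trh was 9.21 and 7.46 CPM at 2h and 55.6 and 66.8 CPM at 4h in clone 4, and 6.61 and 6.24 and then 17.5 and 20.8 CPM in clone 8, with no overlap. Abcc2 went from 5.96 and 6.63 CPM to 33.1 and 27.4 in clone 4, and from 1.44 and 1.33 CPM to 4.22 and 4.44 in clone 8, and was the only one of the 12 without a called clone difference (−0.66, adjusted p = 0.244). Pou4f2 rose from 2.98 and 2.90 CPM to 41.5 and 32.8 in clone 4 and stood at 1.90, 1.40, 2.61 and 2.60 CPM in clone 8. Of Exoc3l, 14.4% of the exon length is shared with a gene on the opposite strand. All 12 had the larger change in clone 4, as did 1227 of the 1547 genes called in either direction, and 7 of the 12 passed within clone 8 on its own.

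The 12 falls were Fos, Igf2, Krt8, Egr1, Lats2, Cdkn1c, H19 and Rhob, described above, with Usp17le (−1.55), Esx1, a homeobox gene on the X chromosome (−1.43), Trim36, a ubiquitin ligase (−1.38), and Parm1, a mucin-like protein (−1.33). Usp17le belongs to a multigene family whose reads cannot be assigned with certainty; it was 9.65 and 9.67 CPM at 2h and 2.81 and 3.98 CPM at 4h in clone 8, and at most 0.519 CPM in clone 4. Parm1 fell in both clones, from 2.72 and 4.42 CPM to 1.47 and 1.78 in clone 4, and from 7.83 and 6.94 CPM to 2.61 and 2.91 in clone 8. A clone difference was called in 4 of the 12 falls and 11 of the 12 rises, and in 439 of all 1547 called genes. In all 12 falls the mean 0h level was below that of 2h. Their mean rev level was above that of 4h in 10 and below it in 2. Among the 12 rises the mean rev level was below that of 4h in 12, and the 0h level below that of 2h in 8. The third component also set 4h and 0h apart from 2h and rev. Whether the falls belong to that split was not tested.

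The clones differed in the response over the whole transcriptome. The change from 2h to 4h differed between them in 1891 genes, 14.8% of those tested, by a test of the difference itself in edgeR: 1065 had the higher and 826 the lower change in clone 8. In 1604 of them the change was larger in size in clone 4, and in 1263 the signs were opposite. Within clone 4, 1695 genes were higher and 2030 lower at 4h, and within clone 8, 485 and 528. In 1300 of the 1547 genes called over both clones, both 4h libraries lay on the called side of both 2h libraries within each clone. These genes were called on the same libraries, and the share over all tested genes was not counted. The number is therefore no separate sign that the clones agree.

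The largest differences with the higher change in clone 8 were Lefty1 and Lefty2, secreted inhibitors of Nodal that are close copies of each other, so that reads may be shared. Lefty2 went from 56.3 and 55.6 CPM to 1.73 and 8.38 in clone 4, and from 32.0 and 38.5 CPM to 73.3 and 80.1 in clone 8. The difference was 4.88 ± 0.31 (edgeR adjusted p = 7.18e-13). Lefty1 went from 31.6 and 21.3 CPM to 0.933 and 1.27 in clone 4 and from 10.6 and 10.7 CPM to 15.98 and 10.7 in clone 8 (5.003 ± 0.40, adjusted p = 1.43e-10). Nodal itself fell in both clones, with a clone difference of 0.17 ± 0.18 (adjusted p = 0.574). Ism2 (3.08), Rasgef1a (2.91), Prickle2, a planar polarity protein (2.58), and Mvb12b (2.57) followed.

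In the other direction Emp1, a membrane protein, went from 0.519 and 0.553 CPM to 9.47 and 5.08 in clone 4 and from 9.57 and 9.25 CPM to 3.62 and 3.83 in clone 8 (−5.16 ± 0.45, edgeR adjusted p = 7.98e-10). Soga3 (−4.65), Pla2g7, a secreted phospholipase (−5.02), and Ccnd2 (−4.37) rose in clone 4 with clone 8 near its 2h level; of Pla2g7 10.98% and of Soga3 16.4% of the exon length is shared. Sema6a, a semaphorin, went from 1.69 and 1.24 CPM to 15.9 and 8.38 in clone 4 and from 2.20 and 2.52 CPM to 0.804 and 0.766 in clone 8 (−4.68). Tmem132d had 0 counts in both clone 4 libraries of 2h and 14 and 8 at 4h. Set against the floor of 3 counts per library it was at least 4.5-fold higher at 4h in clone 4, and its fitted difference of −7.17 depends on the prior count and is no bound; intervals and floors cover counting error only. In clone 8 it stood at 6.99 and 6.31 CPM at 2h and 5.93 and 5.51 CPM at 4h.

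**Figure D4:**
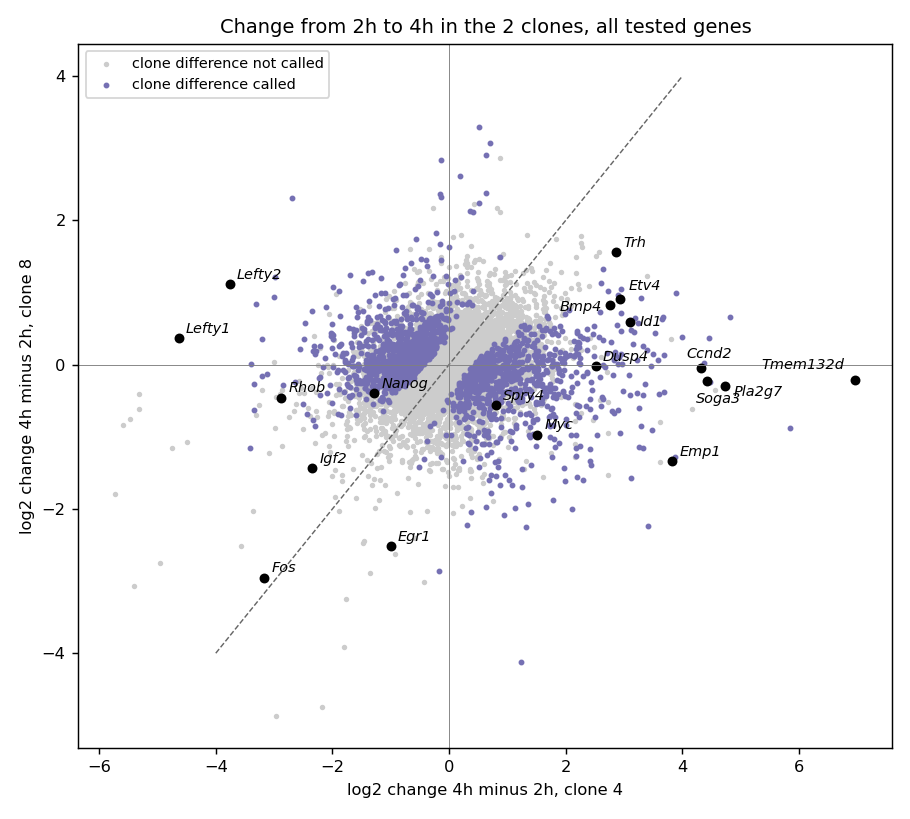
Log2 change from 2h to 4h in clone 4 (x axis) and clone 8 (y axis) of the tested genes; black points are named genes, purple points have a called clone difference, grey points do not, and the dashed line marks equal change. Fos lies near the line, while Dusp4, Ccnd2 and Tmem132d lie far to the right of it and Lefty1 and Lefty2 far to the left.

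Genes that fell were longer in the genome than genes that rose. The median span was 45.6 kb for the 810 lower genes, 14.9 kb for the 737 higher genes and 22.3 kb for all tested genes with an annotation. By span, 4.61% of protein-coding genes under 5 kb were lower, 3.67% of those of 5 to 20 kb, 7.45% of those of 20 to 80 kb and 11.7% of those over 80 kb, and the shares of higher genes were 6.42%, 7.98%, 4.66% and 3.55%. The median change of genes over 80 kb was −0.22 in clone 4 and −0.08 in clone 8, and that of genes under 5 kb was 0.10 in each. Between the other groups, which share libraries with this comparison, the median of genes over 80 kb was 0.07 for 2h minus 0h, −0.06 for 4h minus 0h, 0.04 for rev minus 4h and −0.11 for rev minus 2h; for genes under 5 kb these were −0.07, 0.02, −0.009 and 0.09. Among genes with a change of at least 2-fold, the lower ones had a median span of 16.2 kb and the higher ones 15.2 kb. Beside this, the share of counts outside the 8 abundant features that fell on protein-coding genes over 80 kb was 16.5% to 18.1% at 2h and 15.6% to 16.7% at 4h (exact permutation p = 0.0571, adjusted p over the 8 library measures 0.229), a measure chosen after the values were seen.

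**Figure D5:**
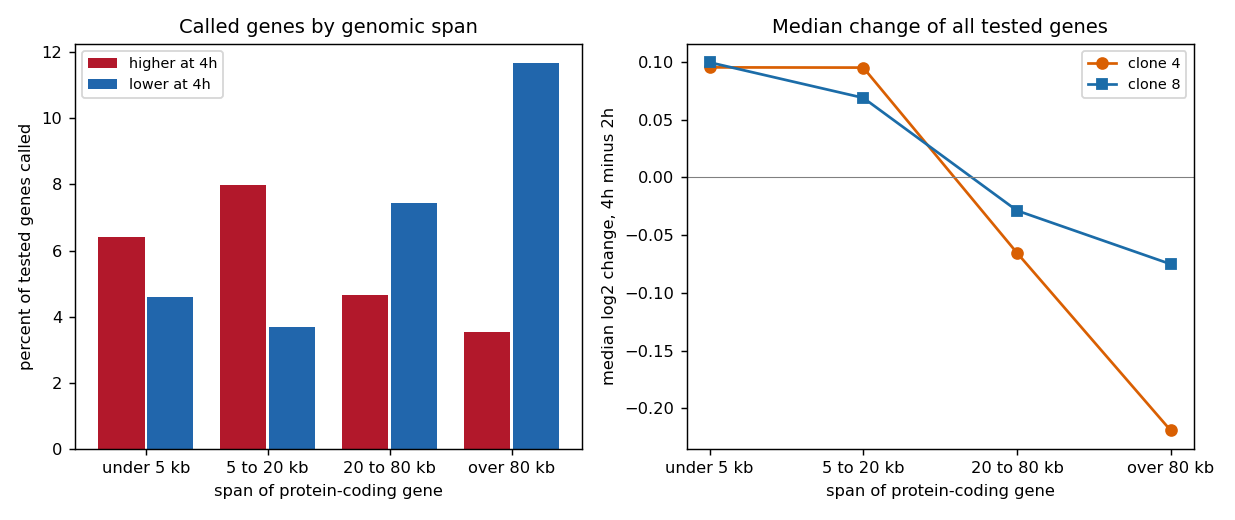
Left, percent of tested protein-coding genes called higher (red) or lower (blue) at 4h in 4 classes of genomic span; right, median log2 change of the tested protein-coding genes of each class in clone 4 (circles) and clone 8 (squares). The share called lower rises from 4.61% under 5 kb to 11.7% over 80 kb, and the medians of both clones go from 0.10 to below zero.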

How the data were processed

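RNA of 16 libraries was depleted of ribosomal RNA and made into libraries with NEBNext Ultra II, per the labels' protocols. The authors deposited 1 table of raw whole-number counts per Ensembl gene ID (52636 IDs), with no normalization. The submitters' processing notes name bcl2fastq 2.19.1, STAR 2.5.3a and the build mm10; the counting program, annotation and strand setting are not given in the sources used here. Symbols and positions came from GENCODE M21 (GRCm38) by gene ID; 147 IDs had no match.

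Genes were kept by edgeR's filterByExpr (minimum count 10, total 15), leaving 12742, scaled by TMM and fitted by quasi-likelihood (edgeR 4.0.16, R 4.3.3) over all 16 libraries with group and clone, and p-values were adjusted by Benjamini-Hochberg over all tested genes. The clone model carries the clones' unequal responses in its residual spread. Changes within a clone, and their difference, came from a fit with 1 term for each of the 8 pairs of group and clone. A standard error is the change divided by the root of F. Alternatives were other scalings, count filters, thresholds, DESeq2 1.42.0, thinned counts, each clone alone and each library left out. The fit was also run on simulated counts in which both clones had the same response, unlike these data, and the outcome is not reported here. Floors are 3 counts per library. Promoters came from RefSeq (first listed per symbol).

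Genes outside the lists were named by rule: called, the higher group averaging 50 counts or more, both 4h libraries of each clone on the same side of both its 2h libraries, no predicted gene, pseudogene or small RNA, then the 12 largest rises and falls; for the clone difference, the 6 largest in each direction with 50 counts or more on average in 1 pair of clone and time and no overlap between the changes of the clones. The comparison and the gene lists were chosen with earlier results of these data known; which libraries enter it follows from the group labels. The libraries of a clone with the same number were checked for pairing: the correlation of their deviations was −0.03 in clone 4 and 0.12 in clone 8. With so few libraries this cannot show whether libraries of the same number share material. Libraries of one clone and time differed from each other by more than counting error (chi-square over its degrees of freedom, 2.25 to 2.94). Some results are not reported here.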

Additional observations from a re-analysis of the deposited data

Results flagged for a closer look

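The change from 2h to 4h differed between the clones, by the test of the difference in edgeR, in 1891 genes, 14.8% of those tested. Of the 66 genes examined here, 12 were named for the size of this difference and others were printed for their clone values, so the count among them is set by that choice: 50 differed, 28 with the lower and 22 with the higher change in clone 8, and 48 with the change larger in size in clone 4. The values below are the clone 8 change minus the clone 4 change, on the log2 scale.

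Among genes that rose, the difference was −3.01 for Pou4f2, −3.08 for Sgms2, −3.02 for Akr1b8, −2.90 for Jade2, −1.89 for Fam167a, −1.29 for Trh, −1.31 for Ppm1j, −1.70 for Nrp2, −2.52 for Id1, −1.93 for Exoc3l, −1.47 for Pcdh1, −1.93 for Bmp4, −1.87 for Cdh2 and −2.03 for Cavin1. Among ERK targets and feedback genes it was −2.48 for Myc, −2.53 for Dusp4, −1.64 for Dusp6, −1.37 for Spry4, −2.01 for Etv4, −2.67 for Plaur, −2.66 for Vgf and −4.37 for Ccnd2. Egr1, at −1.52, and Tcl1, at 1.71, were the 2 of the 50 whose change was the larger in size in clone 8.

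For genes that fell more in clone 4, the difference was 1.56 for Esx1, 1.44 for Lats2, 2.41 for Rhob, 0.88 for Nanog, 1.14 for Klf4, 0.94 for Fgf4, 1.23 for Cdkn1a, 1.49 for Jun, 0.67 for Ier2, 0.95 for Zic2, 1.21 for Zic5 and 0.65 for Hist1h1b. It was 0.98 for Esrrb, 1.86 for Dppa3 and 1.94 for Fgfr2, whose changes had opposite signs in the clones. The genes named for the difference itself had 5.003 (Lefty1), 4.88 (Lefty2), 3.08 (Ism2), 2.91 (Rasgef1a), 2.58 (Prickle2), 2.57 (Mvb12b), −7.17 (Tmem132d), −5.16 (Emp1), −5.02 (Pla2g7), −4.68 (Sema6a) and −4.65 (Soga3).

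In 3 of 296 groups of 4 libraries 1 library stood apart from the other 3 by Dixon's ratio. Each group pooled the libraries of both clones. Where the clones differ, the values fall into pairs, and a single library can hardly stand apart. The usual chance rate of about 1 in 20 groups therefore does not apply, and the low count says little about library quality. Rps6ka2 was at 15.3 CPM in a 2h library of clone 4 and Cdk2 at 47.2 CPM in the other. Cdkn1a was at 14.9 CPM in a 4h library of clone 4, below the other 3 of its group.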

How the results depend on the processing

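With all settings as described, 1547 genes, 11 immediate-early genes and 2 feedback inhibitors were called at 4h against 2h, and 1891 genes differed between the clones. The scaling mattered most among normalizations: with library totals, which move the median of all genes to −0.14, 385 genes, 1 feedback inhibitor and 511 clone differences were called, and 38.4% of the called genes were higher, against 47.6%. DESeq2 called 1 feedback inhibitor and 1093 clone differences. The 2h and 4h libraries alone gave 958 genes and 1 feedback inhibitor, and the same libraries with counts also thinned to 1 total gave 810 genes and 1030 clone differences, against 958 and 1846 without thinning. Without a count filter 6 feedback inhibitors were called.

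The clone term had a large effect. Without it 266 genes, 2 immediate-early genes and 0 feedback inhibitors were called, and the mean of the clone changes gave 3439 genes and 8 feedback inhibitors. Clone 4 alone gave 3385 genes, 18 immediate-early genes and 11 feedback inhibitors, and clone 8 alone gave 5 feedback inhibitors. In clone 8 alone the change took the other sign for Myc (−0.98), Dusp4 (−0.021), Dusp6 (−0.47), Spry4 (−0.56), Ccnd2 (−0.057), Plaur (−0.24), Fgfr2 (0.16), Mest (−0.056), Tcf7l2 (−0.069) and Dppa3 (0.67); in clone 4 alone it did for Tcl1 (−0.73). At adjusted p under 0.01 there were 457 genes, 4 immediate-early genes, 0 feedback inhibitors and 1017 clone differences, and at a log2 change of at least 1 there were 302, 6, 1 and 901.

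The fit with the replicate number as a block called 1108 genes, 10 immediate-early genes, 1 feedback inhibitor and 1762 clone differences; the labels do not say that a number marks shared material. Leaving out 1 library at a time gave 703 to 1762 genes, 7 to 11 immediate-early genes, 0 to 5 feedback inhibitors and 842 to 1995 clone differences. The lowest counts came without libraries of clone 4: 720 genes and 7 immediate-early genes without the second 2h library, 703 genes and 842 clone differences without the first 4h library, and 783 genes without the second 4h library, the least deep. For the gene lists, settings were added after seeing the data: delayed targets called higher ranged from 2 to 7 with 1 library left out. Apart from fewer samples or tested genes where the setting has them, the cause was not tested.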
